A study of Mus musculus with 18 samples.

Results

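The 37 genes annotated on the mouse mitochondrial genome and 11 annotated nuclear copies of them were followed through 18 RNA-seq libraries of sorted cone photoreceptors. The genes were chosen by a rule on chromosome and annotation, 48 of the 54532 genes in the count files, that uses no measured value. They comprise 2 ribosomal RNAs (rRNAs), 22 transfer RNAs (tRNAs), 13 protein-coding genes and 11 pseudogenes, of which 7 lie on chromosome 1, 3 on chromosome 2 and 1 on chromosome 13. In BALB/c cones the counts of the mt-Nd3 sequence fell almost wholly on its chromosome 1 copy, and in C57BL/6J cones they fell wholly on the mitochondrial gene. With a filter on low counts, no gene of the set was called for Txnip in either strain.

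Mitochondrial DNA is a small circle whose strands are each transcribed as long precursors. Most protein and rRNA transcripts are released when the tRNAs lying between them are cut out, and the mitochondrion then adds short poly(A) tails to most of its mRNAs. All 13 proteins are subunits of the respiratory chain or of ATP synthase, which matter to photoreceptors because these cells consume much ATP. Over evolution, stretches of mitochondrial DNA have also been inserted into nuclear chromosomes, where they persist as pseudogenes that are not known to encode respiratory proteins.

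Wildtype retinas of 2 strains were studied. BALB/c, an albino strain, gave 6 control and 6 Txnip libraries at postnatal day 21, and C57BL/6J, a pigmented strain that carries a null mutation of the mitochondrial transhydrogenase gene Nnt, gave 3 control and 3 Txnip libraries at postnatal day 35. Every eye received AAV at birth: controls received only the vector that labels cone nuclei with a histone 2B-GFP fusion (H2BGFP), and Txnip eyes received this label together with AAV-Txnip, in which the red opsin promoter drives Txnip, a thioredoxin-interacting protein that restrains glucose uptake. Labelled cones were collected by FACS, so that only transduced cones were sampled. Txnip eyes thus received a further vector that control eyes did not, and the effect of that vector and of Txnip cannot be told apart. The labels do not say which retinas share a mouse, so the p-values measure the spread between these libraries only. Strain and age changed together and cannot be told apart. The sample titles name no sequencing set, which may have changed with them, and the word strain below stands for all of these.

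The libraries held 647712 to 5172156 counted read pairs. Levels are given as CPM, the count divided by the TMM-scaled library size, and per kilobase where genes are compared. Txnip itself was at 0 to 1.47 CPM in the 9 control libraries and at 814 to 1952 CPM in the 9 Txnip libraries. All 12 listed cone markers were counted in every library and took 3.71% to 9.76% of counts, beside 1.02% to 2.64% for 12 rod markers, a list that includes the broadly expressed Gnb1. C57BL/6J control 1 and Txnip 2 had the highest rod shares in their groups, 2.64% and 1.82%, and also the most bipolar counts. Muller glia markers took 0.036% to 0.145% of counts, amacrine markers 0.0113% to 0.0526%, bipolar markers 0.00575% to 0.0454%, microglia markers at most 0.00275% and retinal pigment epithelium markers at most 0.00155%. In Txnip cones the strains did not overlap in Muller glia markers (0.116% to 0.129% in BALB/c and 0.0421% to 0.0965% in C57BL/6J) or amacrine markers (0.0383% to 0.0526% and 0.0165% to 0.0228%), and in control cones they did not overlap in retinal pigment epithelium markers (0.000456% to 0.00155% and 8.32e-05% to 0.000232%). In BALB/c the amacrine markers lay at 0.0279% to 0.0363% in control cones, below all Txnip libraries. The part of other cell types in the results was not tested.

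The nuclear copies and the genes they match are shown first, because the annotated sequences set where a read pair could be placed. The 7 chromosome 1 copies lie on the minus strand, together spanning chr1:24611535-24616197 (GRCm38), and in order they match mitochondrial bases 6381 to 11042, a stretch of 4662 bases. Gm28661 matches mt-Co2 with 0 mismatches over 681 bases, as do Gm28437 and mt-Co3 over 783 bases, Gm10925 and mt-Atp6 over 678 bases, Gm10222 and mt-Nd4l over 294 bases, and Gm28439 and the first 63.6% of mt-Nd4 over 876 bases. Gm28438 differs from mt-Nd3 at 1 of 345 bases, T3C, counted from 1 at the first base of the gene and with the mitochondrial base first. Gm29216 matches the last 31.8% of mt-Co1 with 6 mismatches over 492 bases. The first 60 bases of these genes and copies are given from the GENCODE transcripts of GRCm38 on the strand of the transcript, with the differing bases in capitals in the mt-Nd3 pair and in Gm13341.
mt-Nd3 (MT:9459-9806, plus strand): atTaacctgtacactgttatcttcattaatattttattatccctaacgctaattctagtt
Gm28438 (chr1:24612775-24613119, minus strand): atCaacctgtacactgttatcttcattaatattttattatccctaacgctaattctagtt
mt-Co2 (MT:7013-7696, plus strand): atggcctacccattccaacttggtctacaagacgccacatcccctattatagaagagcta
Gm28661 (chr1:24614885-24615565, minus strand): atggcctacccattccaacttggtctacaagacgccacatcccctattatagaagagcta
Gm13341 (chr2:22587291-22587962, minus strand): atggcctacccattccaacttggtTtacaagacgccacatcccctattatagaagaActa
The first pair is shown because a single base differs between gene and copy in GRCm38. The other 3 are shown because these bases are the same in the gene and its chromosome 1 copy and differ in the chromosome 2 copy.

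The copies on the other chromosomes are less alike. On chromosome 2, Gm13340 matches the whole of mt-Co1 at 97.6% identity over 1545 bases, Gm13339 matches mt-Nd2 at 96.7% over 510 bases and Gm13341 matches mt-Co2 at 95.9%. Gm4076 on chromosome 13 matches mt-Nd5 at 95.2%. It is annotated as a processed pseudogene, whereas the other 10 copies are annotated as unprocessed.

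Most mitochondrial genes inside the copied stretch had almost no counts. Of the 37 mitochondrial genes, 11 lie wholly inside it, 2 lie partly inside (mt-Co1 and mt-Nd4) and 24 lie outside. Genes outside averaged 2.94 to 26739 counts per library, and the 2 partly inside averaged 2048 and 8195. Of the 11 inside, mt-Nd3 averaged 12.9 counts and mt-Ts1, a serine tRNA that shares 3 bases with mt-Co1, averaged 11.6. The remaining 9 genes averaged at most 1.0 count and never exceeded 6. They are the tRNA genes mt-Td, mt-Tk, mt-Tg and mt-Tr and the coding genes mt-Co2, mt-Atp8, mt-Atp6, mt-Co3 and mt-Nd4l. The authors' counting left out read pairs that aligned to several places, and the part of this in the low counts was not tested. These values are not taken as a measure of how much mt-Co2, mt-Co3, mt-Atp6, mt-Atp8, mt-Nd3 or mt-Nd4l RNA the cones held.

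**Figure D1:**
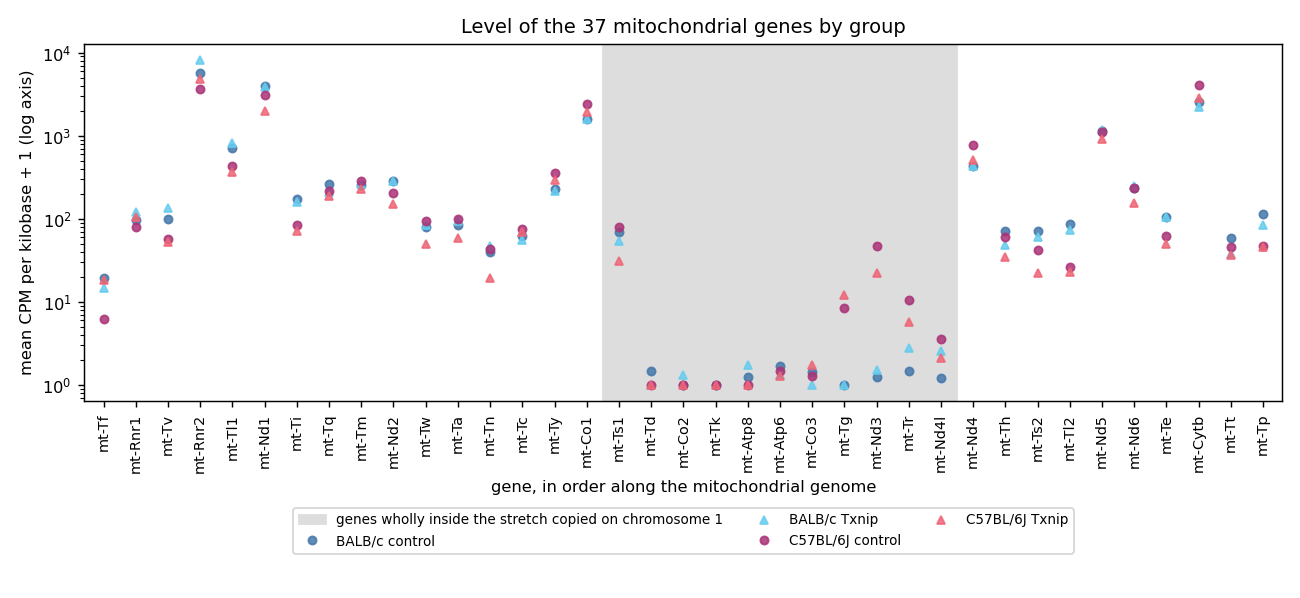
Mean CPM per kilobase, with 1 added, on a log axis, for the 37 mitochondrial genes in their order along the genome. Each point is the mean of a group (6 BALB/c or 3 C57BL/6J libraries), and the grey band marks the 11 genes wholly inside the stretch copied on chromosome 1. Within the band mt-Ts1 and, in C57BL/6J, mt-Nd3 stand above the rest.

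The ends of the range among tRNA genes are the most counted one outside the stretch and the gene inside it that had no count in any library. Both are short enough to be given whole, in lower case throughout.
mt-Tl1 (MT:2676-2750, plus strand): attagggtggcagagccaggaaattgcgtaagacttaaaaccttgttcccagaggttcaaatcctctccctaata
mt-Tk (MT:7700-7764, plus strand): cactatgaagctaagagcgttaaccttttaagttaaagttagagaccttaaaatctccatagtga
mt-Tl1, a leucine tRNA between mt-Rnr2 and mt-Nd1, lies outside the stretch and had 37 to 316 counts per library. mt-Tk, the lysine tRNA between mt-Co2 and mt-Atp8, lies inside it and had 0 counts in all 18 libraries. Between these extremes the tRNA genes overlapped, since mt-Tf, mt-Tn, mt-Ts2, mt-Tt, mt-Th and mt-Tl2, all outside the stretch, averaged 2.94 to 11.2 counts, below mt-Ts1 inside it. A count of 0 allows up to 3 counts, which corresponds to 0.577 to 4.61 CPM depending on the library, and such limits cover counting error only. Pairs were counted for every gene they touched, so a count on a tRNA gene can come from a precursor or from the neighbouring transcript, and mature tRNA was not measured separately.

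mt-Nd3 and its copy divided by strain. mt-Nd3 encodes a small membrane subunit of complex I. The C57BL/6J controls had 70, 26 and 50 counts of it and the C57BL/6J Txnip libraries 20, 19 and 43. In BALB/c, mt-Nd3 had 1 count in control 3, 3 counts in Txnip 2 and 0 in the other 10 libraries. All 6 C57BL/6J libraries lay above all 12 BALB/c libraries. The ratio of summed levels was 260 in control cones (95% counting interval, 46.0 to 10343) and 37.7 in Txnip cones (12.5 to 187). Gm28438 was the reverse. It had 37 to 151 counts (median 55.5) across the BALB/c control libraries, 24 to 145 (median 58.0) across the BALB/c Txnip libraries and 0 in all 6 C57BL/6J libraries. Against the floor of 3 counts per library, Gm28438 was at least 24.1-fold higher in BALB/c control cones and at least 36.9-fold higher in BALB/c Txnip cones than in the C57BL/6J cones of the same arm. The sequences compared are those of GRCm38, and no BALB/c sequence was read. Whether BALB/c mitochondrial DNA carries the base of the gene or of the copy was not tested. The counts thus show where pairs were placed, not which DNA the RNA came from.

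As a share of the counts on gene and copy together, which does not depend on library size, Gm28438 took 99.7% ± 0.716 (SD, n = 6) of BALB/c control counts and 0% in each of the 3 C57BL/6J controls. The difference gave p = 0.0238 in a two-sided exact permutation test, the smallest that 6 against 3 libraries allow. In Txnip cones, which share no library with the controls, the copy took 99.3% ± 1.77 (SD, n = 6) in BALB/c and 0% in C57BL/6J, again with p = 0.0238 by the exact permutation test. The sum of gene and copy overlapped between the strains in control cones. It was 23.9 ± 6.09 CPM in BALB/c (16.6 to 30.9, n = 6) and 16 ± 8.12 CPM in C57BL/6J (9.23 to 25.0, n = 3). With the copies added to their genes before the fit, the C57BL/6J over BALB/c log2 fold change of mt-Nd3 was -0.58 (SE 0.27, edgeR adjusted p = 0.151) in control cones. In Txnip cones the sum was 31.9 ± 3.96 CPM against 7.38 ± 2.26 CPM with no overlap, a log2 fold change of -2.08 (SE 0.30, edgeR adjusted p = 3.35e-05). Pairs aligned to several places were left out of the sum in both arms, so it is not a measure of all mt-Nd3 RNA.

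**Figure D2:**
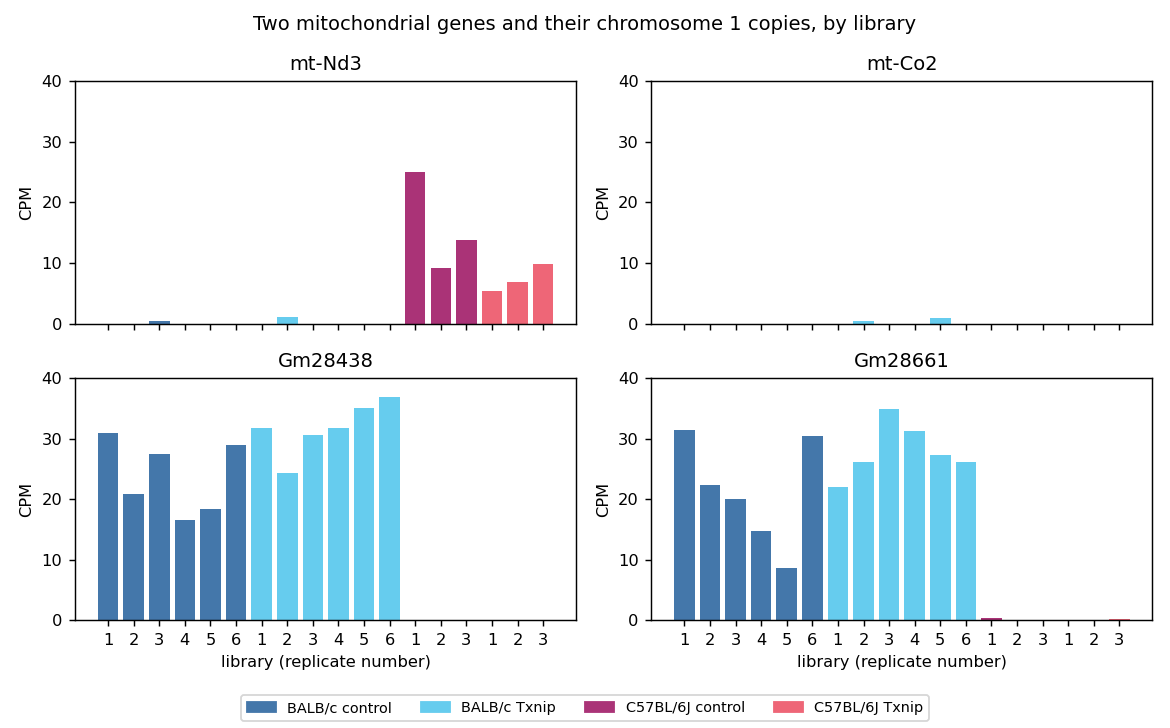
CPM of mt-Nd3 and mt-Co2 (top) and of their chromosome 1 copies Gm28438 and Gm28661 (bottom), with 1 bar per library and the replicate number under it. Counts of mt-Nd3 lie almost wholly in the 6 C57BL/6J libraries and those of both copies in the 12 BALB/c libraries, while mt-Co2 is at or near 0 in all 18.

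Gm28661 also differed by strain, but its mitochondrial counterpart did not take its place. It had 29 to 158 counts (median 40.5) across the BALB/c control libraries and 17 to 165 (median 60) across the BALB/c Txnip libraries. In C57BL/6J it had 1 count in control 1, 1 count in Txnip 3 and 0 in the other 4 libraries. mt-Co2, which encodes the copper-binding subunit of cytochrome c oxidase, had 0 or 1 count in every library of both strains. The ratio of summed Gm28661 levels, BALB/c over C57BL/6J, was 201 in control cones (95% counting interval, 35.8 to 7959) and 307 in Txnip cones (54.8 to 12158). Gm28661 has 0 mismatches to mt-Co2 over 681 bases, and pairs aligned to several places were not counted. How its counted pairs came to be placed was not tested, so the ratio compares placed pairs and is no measure of RNA from the copy. The share of a split was not tested for this pair, since gene plus copy did not reach 10 counts in every library. Gm28438, Gm28661 and mt-Nd3 each passed the filter on low counts only through the strain in which they were high, so their calls between strains follow from that and are given as values rather than counted as support.

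The other chromosome 1 copies had few counts. Gm28437 had 1 to 12 counts in each BALB/c library and 0 or 1 in each C57BL/6J library. Gm10222 and Gm10925 reached at most 8 and 7 counts in BALB/c and 0 and 2 in C57BL/6J. Gm28439 never exceeded 3 counts. Gm29216, the copy that differs most from its gene, was counted in every C57BL/6J library (3, 3 and 3 in control cones, 4, 1 and 5 in Txnip cones) and in 5 of the 12 BALB/c libraries, where it had 0 to 6. The gene just before mt-Nd3, mt-Tg, a glycine tRNA, had 1 to 6 counts in each C57BL/6J library and 0 in all 12 BALB/c libraries.

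Splits were tested for 6 of the 11 pairs, those with at least 10 counts on gene plus copy in every library. Apart from mt-Nd3, the mean share on the copy stayed between 0% and 0.101% in every group. For mt-Nd4 and Gm28439 this share says nothing of the copy, because Gm28439 has 0 mismatches to mt-Nd4 over its whole length and pairs aligned to several places were not counted, and its test is left out. Gm13340, the full-length copy of mt-Co1 on chromosome 2, took 0.0638% ± 0.0574 in BALB/c control cones and 0.0969% ± 0.0293 in C57BL/6J control cones. The difference of 0.0332 percentage points was within the spread (exact permutation test, p = 0.429). Gm29216, Gm13339 and Gm4076 gave p of 0.262 to 0.476 in control cones by the same exact permutation test, not corrected for the number of pairs.

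The rRNAs varied widely between libraries, from 0.217% to 1.40% of counts. mt-Rnr2 encodes the rRNA of the large mitochondrial ribosomal subunit and mt-Rnr1 that of the small one. mt-Rnr2 stood at 4576 to 13237 CPM (median 9636) across the BALB/c control libraries and at 11499 to 13631 CPM (median 12880) across the BALB/c Txnip libraries. The 3 C57BL/6J controls had 2070, 12785 and 2674 CPM and the 3 C57BL/6J Txnip libraries had 2151, 10588 and 10402 CPM. The C57BL/6J libraries fell into a low and a high set with members of both arms in each. mt-Rnr1 was far lower, at 61.7 to 132 CPM (median 86.9) across the BALB/c control libraries, 98.1 to 134 CPM (median 111) across the BALB/c Txnip libraries, 49.3, 129 and 46.7 CPM in C57BL/6J control cones and 42.3, 131 and 123 CPM in C57BL/6J Txnip cones. Per base, mt-Rnr2 exceeded mt-Rnr1 by 58.9 ± 14.7 times (SD) over the 6 BALB/c controls and by 39.9 ± 17.9 times over the 3 C57BL/6J controls. The libraries were primed on poly(A), and the part of priming in this ratio was not tested. The strains did not differ past the threshold in mt-Rnr2, with a C57BL/6J over BALB/c log2 fold change of -0.63 (SE 0.49, edgeR adjusted p = 0.409) in control cones and -0.73 (SE 0.49, edgeR adjusted p = 0.33) in Txnip cones. With the share of the rRNA locus described next as a covariate, mt-Rnr2 was called lower in C57BL/6J in both (-0.68, edgeR adjusted p = 2.54e-04, and -1.0, edgeR adjusted p = 2.38e-06), and likewise without the low-count filter (-0.63 and -0.72). Leaving out libraries moved the control estimate between -1.93 and -0.24, and without C57BL/6J control 2 it was -1.93 and called. In Txnip cones the range was -1.04 to -0.30, with no call.

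Across libraries the mitochondrial rRNA share moved with a nuclear rRNA locus. The locus lies at chr17:39843013-39848827, where Gm26917, CT010467.1, Gm42418 and AY036118 are annotated. BALB/c controls 2, 4 and 5 had 6.10% to 8.84% of their counts on the locus and 0.494% to 0.752% on the mitochondrial rRNAs. The other 9 BALB/c libraries had 12.1% to 16.5% on the locus and 1.20% to 1.40% on the mitochondrial rRNAs. Among C57BL/6J libraries, control 2, Txnip 2 and Txnip 3 had 20.3% to 27.8% and 0.943% to 1.06%, and control 1, control 3 and Txnip 1 had 3.31% to 6.49% and 0.217% to 0.275%. The libraries high in one class were thus high in the other within each strain. No correlation is given, because the libraries fall into separate clusters. The ratio of mt-Rnr2 counts to counts on the locus was 0.0799 to 0.0844 (median 0.0820) across the BALB/c control libraries and 0.0793 to 0.0981 (median 0.0835) across the BALB/c Txnip libraries. The 3 C57BL/6J controls had 0.0719, 0.0376 and 0.0416 and the 3 C57BL/6J Txnip libraries had 0.0372, 0.0347 and 0.0459. The strains did not overlap in this ratio, which was chosen after its values had been seen and is given as a description.

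**Figure D3:**
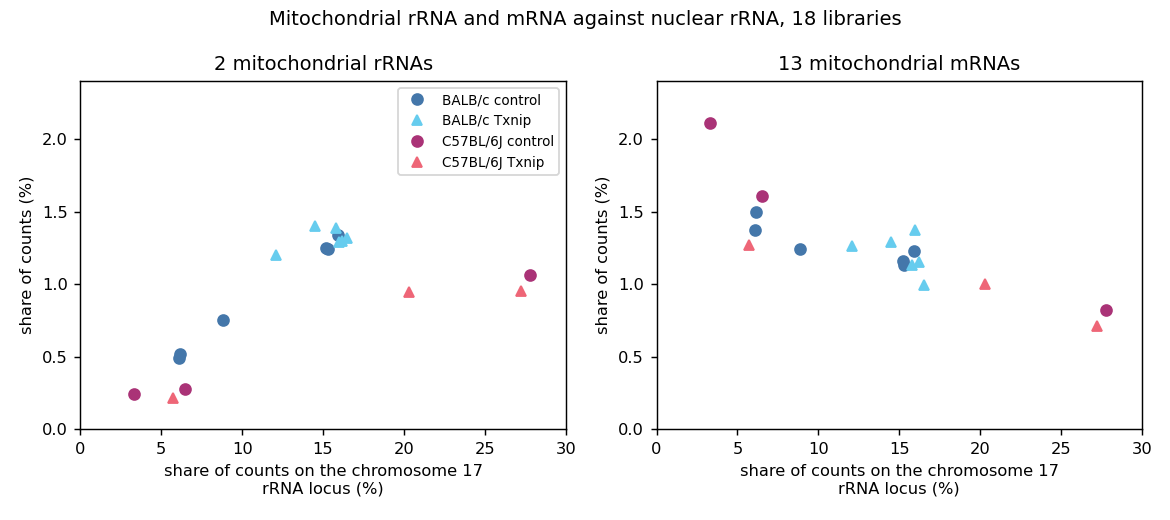
Share of counts on the 2 mitochondrial rRNAs (left) and on the 13 mitochondrial mRNAs (right) against the share on the chromosome 17 rRNA locus, in percent, with 1 point per library. The rRNA share is 0.494% to 0.752% in the 3 BALB/c controls with least on the locus and 1.20% to 1.40% in the other 9 BALB/c libraries, and the 2 C57BL/6J libraries past 25% on the locus have the lowest mRNA shares.

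The mRNA class took 0.714% to 2.11% of counts over the 18 libraries, and its groups overlapped. Its share in BALB/c was 1.27% ± 0.139 (SD, n = 6) in control cones, and it was 1.20% ± 0.134 (n = 6) in BALB/c Txnip cones, 1.51% ± 0.648 (n = 3) in C57BL/6J control cones and 0.997% ± 0.279 (n = 3) in C57BL/6J Txnip cones. In C57BL/6J the 3 libraries with most counts on the rRNA locus had mRNA shares of 0.714% to 1.0%, and the other 3 had 1.27% to 2.11%. The tRNA class took 0.00763% to 0.0217% of counts over all 18 libraries.

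Levels per kilobase were ranked among the 7 mRNAs averaging over 100 counts. The 6 mRNAs wholly inside the copied stretch are not among them, so the most abundant mRNA of all 13 is not known. Of the 7, mt-Nd1 had the highest mean level in BALB/c control cones, 4002 CPM per kilobase, followed by mt-Cytb at 2552, mt-Co1 at 1580 and mt-Nd5 at 1131. In C57BL/6J control cones mt-Cytb led at 4058 CPM per kilobase, followed by mt-Nd1 at 3087, mt-Co1 at 2438 and mt-Nd5 at 1107. mt-Nd4, mt-Nd2 and mt-Nd6 were lower in both strains, at 203 to 765 CPM per kilobase in control cones. Lengths are those of the whole gene, although 63.6% of mt-Nd4 and 31.8% of mt-Co1 lie in the copied stretch, so the per-kilobase levels of these 2 genes are not on the same footing as the others. The part of these copied bases in the strain comparisons of the 2 genes below, and in their ratios to mt-Nd1, was not tested.

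The strain comparison in control cones called 8 of the 30 genes of the set that passed the low-count filter, against 17.6% of all 14751 genes tested. Of the 8, 4 were higher in C57BL/6J (mt-Co1, mt-Nd3, mt-Nd4 and mt-Cytb) and 4 were lower (mt-Tl1, mt-Nd2, Gm28438 and Gm28661). Over all genes, 8.05% were called higher and 9.51% lower. The 8 calls include mt-Nd3, Gm28438 and Gm28661, which passed the filter through a single strain, and without them 5 of 27 were called (18.5%), a share near the background. The groups did not overlap for 3 of these 27 (11.1%), against 18.6% of all genes. In Txnip cones, 8 of 30 were again called, against 17.6% of all genes. There mt-Nd3 was higher and mt-Tl1, mt-Nd1, mt-Ti, mt-Nd2, mt-Nd6, Gm28438 and Gm28661 were lower, beside 8.24% of all genes called higher and 9.38% lower. The comparisons share no library, though they share the fit's estimate of spread, and without the same 3 genes 5 of 27 were again called (18.5%) and the groups did not overlap for 7 (25.9%), against 17.9% of all genes. Of the 27, mt-Tl1 and mt-Nd2 were called in both arms. With the share of the rRNA locus as a covariate, an alternative chosen after seeing the data, 13 genes of the set were called in Txnip cones in place of 8. Leaving out libraries gave 5 to 10 calls in control cones, with 5 without BALB/c control 1, 3 or 6 or without C57BL/6J control 3, and 7 to 11 in Txnip cones. Without C57BL/6J control 3, the calls over all genes in control cones fell from 2590 to 1604.

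The mitochondrial mRNAs that were higher in C57BL/6J control cones encode the catalytic subunit of cytochrome c oxidase (mt-Co1), a core membrane subunit of complex I (mt-Nd4) and the only mitochondrially encoded subunit of complex III (mt-Cytb). mt-Co1 was at 2212 to 2797 CPM (median 2420) across the BALB/c control libraries and at 4257, 2894 and 4150 CPM in C57BL/6J, without overlap. Its log2 fold change was 0.63 (SE 0.14, edgeR adjusted p = 0.00396). In Txnip cones mt-Co1 was at 2172 to 2854 CPM (median 2447) in BALB/c and at 3483, 2250 and 3173 CPM in C57BL/6J, with overlap and a log2 fold change of 0.26 (SE 0.15, edgeR adjusted p = 0.236). mt-Nd4 was at 571 to 627 CPM (median 603) across the BALB/c control libraries and at 1378, 587 and 1196 CPM in C57BL/6J. Control 2 of C57BL/6J, which had most counts on the rRNA locus, lay within the BALB/c range, and the log2 fold change was 0.81 (SE 0.19, edgeR adjusted p = 0.00479). mt-Cytb was at 2397 to 3617 CPM (median 2798) across the BALB/c control libraries and at 6187, 2571 and 5169 CPM in C57BL/6J. Here too control 2 lay within the BALB/c range, and the log2 fold change was 0.67 (SE 0.22, edgeR adjusted p = 0.0371).

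In Txnip cones none of these 3 genes was called. mt-Nd4 was at 476 to 657 CPM in BALB/c (median 610) and 905, 518 and 679 CPM in C57BL/6J (log2 fold change 0.23, SE 0.19, edgeR adjusted p = 0.445). mt-Cytb was at 2077 to 2959 CPM (median 2520) and 4472, 2211 and 2989 CPM (log2 fold change 0.36, SE 0.22, edgeR adjusted p = 0.28). Without the C57BL/6J libraries with the highest rod shares, control 1 and Txnip 2, mt-Co1 (0.42, edgeR adjusted p = 0.0199) and mt-Cytb (0.57, edgeR adjusted p = 0.0416) were called in Txnip cones, and with the rRNA locus share as a covariate mt-Cytb was (0.29, edgeR adjusted p = 0.0418). Without Txnip 2 alone, mt-Co1 was called as well. The calls of mt-Nd4 and mt-Cytb in control cones were lost without C57BL/6J control 1, at log2 fold changes of 0.55 and 0.39. mt-Nd4 was still called with the rod share as a covariate and without both C57BL/6J control 1 and Txnip 2, while mt-Cytb was not (0.44, edgeR adjusted p = 0.123, and 0.40, edgeR adjusted p = 0.171). The call of mt-Cytb was also lost, at 0.59 to 0.66, without C57BL/6J control 3 or any of BALB/c controls 1, 2, 3 and 6 and Txnip 1, 2 and 4.

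mt-Nd2, which encodes a core membrane subunit of complex I, was lower in C57BL/6J in both arms. It was at 262 to 320 CPM (median 286) across the BALB/c control libraries and at 253, 202 and 178 CPM in C57BL/6J (log2 fold change -0.47, SE 0.16, edgeR adjusted p = 0.0422). In Txnip cones mt-Nd2 was at 252 to 336 CPM (median 295) and at 109, 165 and 187 CPM (log2 fold change -0.94, SE 0.16, edgeR adjusted p = 2.17e-04). The strains did not overlap in either arm. The call of mt-Nd2 in control cones was lost, at -0.48 to -0.36, without C57BL/6J control 2 or 3, BALB/c control 1, 3 or 6, or BALB/c Txnip 5, and with all genes tested (-0.46). mt-Nd1, which forms part of the quinone site of complex I, was at 3414 to 4626 CPM (median 3641) across the BALB/c control libraries and at 4144, 1743 and 2975 CPM in C57BL/6J, with overlap and no call (log2 fold change -0.37, SE 0.20, edgeR adjusted p = 0.216). It was called there with the rod share as a covariate (-0.58, edgeR adjusted p = 0.0295), with the rRNA locus share as a covariate (-0.55, edgeR adjusted p = 0.00154) and without C57BL/6J control 1, alone or together with Txnip 2 (with both left out -0.70, edgeR adjusted p = 0.00461). In Txnip cones mt-Nd1 was at 2988 to 4176 CPM (median 3690) in BALB/c and at 2322, 1358 and 1957 CPM in C57BL/6J, without overlap (log2 fold change -0.96, SE 0.21, edgeR adjusted p = 0.00245).

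The only mRNA encoded on the other strand, mt-Nd6, also a complex I subunit, was at 92.1 to 136 CPM (median 127) across the BALB/c control libraries and at 167, 76.7 and 120 CPM in C57BL/6J, with a log2 fold change of 0.0086 (SE 0.19, edgeR adjusted p = 0.984). In Txnip cones it was at 108 to 148 CPM (median 126) and at 81.0, 66.9 and 89.7 CPM, without overlap (log2 fold change -0.67, SE 0.19, edgeR adjusted p = 0.0186). The call was lost without C57BL/6J Txnip 2, at -0.58. Counting did not use strand, so reads of mt-Nd6 and antisense reads from the other strand cannot be told apart. mt-Nd5, the largest complex I subunit of the set, was at 1885 to 2211 CPM (median 2087) and 1939, 1978 and 2142 CPM in control cones and at 1796 to 2432 CPM (median 2163) and 1471, 1443 and 2126 CPM in Txnip cones. It was not called by edgeR in control cones (log2 fold change -0.03, SE 0.13, adjusted p = 0.908) or in Txnip cones (log2 fold change -0.36, SE 0.14, edgeR adjusted p = 0.0743). In Txnip cones it was called by DESeq2, by edgeR with DESeq2 size factors, with the rRNA locus share as a covariate, and without BALB/c Txnip 6 or C57BL/6J Txnip 3.

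The ratio of mt-Cytb to mt-Nd1 separated the strains in both arms, where the levels of mt-Cytb overlapped. On counts, this ratio was 0.697 to 0.838 (median 0.757) across the BALB/c control libraries and 0.652 to 0.741 (median 0.683) across the BALB/c Txnip libraries. The 3 C57BL/6J controls had 1.49, 1.48 and 1.74 and the 3 C57BL/6J Txnip libraries had 1.93, 1.63 and 1.53. All 6 C57BL/6J libraries, including those with the highest rod shares and those with most rRNA, lay above all 12 BALB/c libraries. The mt-Co1 to mt-Nd1 ratio was 0.605 to 0.727 over the BALB/c libraries and 1.03 to 1.66 over the C57BL/6J libraries. The mt-Nd4 to mt-Nd1 ratio was 0.132 to 0.175 and 0.333 to 0.402. The mt-Nd2 to mt-Nd1 ratio overlapped between the strains, at 0.0597 to 0.0939 and 0.0471 to 0.121. These ratios, among 10 computed, were chosen after the levels had been seen and are given without a test.

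**Figure D4:**
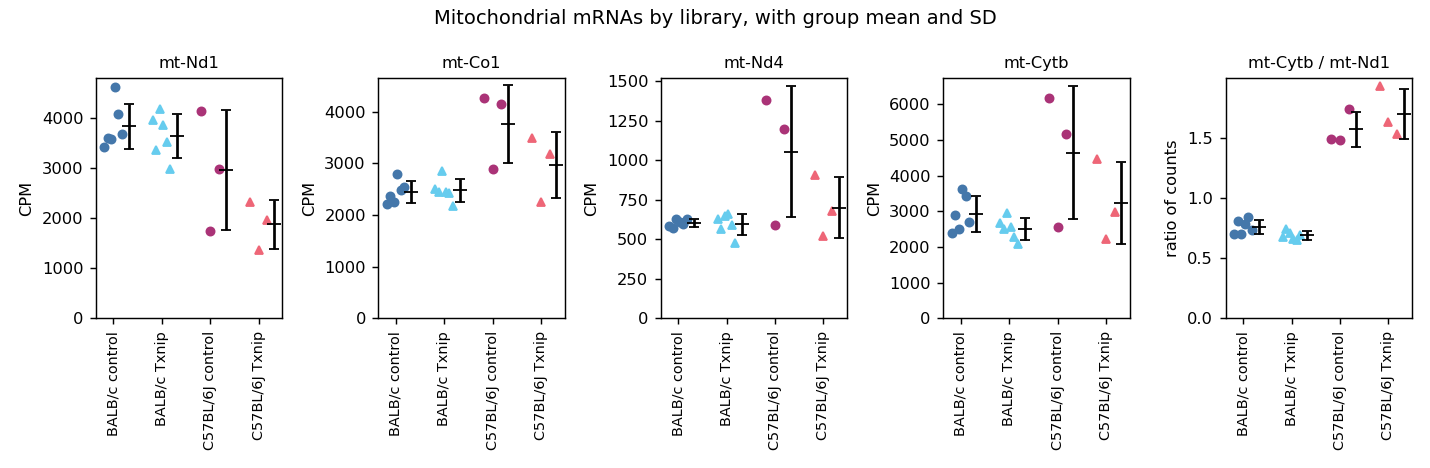
CPM of mt-Nd1, mt-Co1, mt-Nd4 and mt-Cytb and the mt-Cytb to mt-Nd1 ratio of counts, with 1 point per library and the group mean and SD beside the points (n = 6, 6, 3 and 3). The levels of C57BL/6J libraries spread widely, and their ratios lie at 1.48 to 1.93 against 0.652 to 0.838 in BALB/c.

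Among the tRNA genes, mt-Tl1 was lower in C57BL/6J in both arms. It was at 44.3 to 60.8 CPM (median 56.2) across the BALB/c control libraries and at 41.8, 40.5 and 15.9 CPM in C57BL/6J, without overlap (log2 fold change -0.73, SE 0.24, edgeR adjusted p = 0.0411). This call was lost without C57BL/6J control 3 (-0.39) and without BALB/c control 1, 3, 4 or 6 or Txnip 5 (-0.74 to -0.70), and with the rod share as a covariate (-0.68, edgeR adjusted p = 0.0632). In Txnip cones it was at 56.8 to 67.5 CPM (median 61.3) and at 18.3, 25.8 and 39.1 CPM, again without overlap (log2 fold change -1.15, SE 0.25, edgeR adjusted p = 0.00206). mt-Ti, an isoleucine tRNA that shares 2 bases with mt-Nd1, was at 5.61 to 17.4 CPM (median 12.1) and 3.21, 9.58 and 4.4 CPM in control cones and was not called (log2 fold change -1.07, SE 0.41, edgeR adjusted p = 0.0734), except without BALB/c control 2 or C57BL/6J control 2. In Txnip cones mt-Ti was at 4.61 to 14.6 CPM (median 11.5) and 3.77, 2.91 and 8.01 CPM (log2 fold change -1.19, SE 0.41, edgeR adjusted p = 0.0481), a call on 3 to 62 counts per library that was lost in 11 of 18 removals of a library, at -1.25 to -0.96. Of the 17 tRNA genes tested, 10 had negative estimates in control cones and 15 in Txnip cones, with medians of -0.26 and -0.82 beside -0.001 and 0.051 over all genes. The median in control cones was -0.41 without C57BL/6J control 2 and -0.094 without C57BL/6J control 1.

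The Txnip comparison asked whether added Txnip in cones was accompanied by a change in mitochondrial transcripts. In BALB/c, 0 of the 21 genes of the set that were tested were called, against 0.0166% of all 12017 genes. Over all genes, the 2 calls became 254 of 12110 without BALB/c Txnip 1 and 76 with DESeq2, with 0 in the set in both. At an unadjusted p under 0.05 there were 3 (mt-Rnr2, mt-Cytb and Gm28438), where 11.4% of all genes were past it. The arms overlapped for all 21, where 0.699% of all genes did not overlap. mt-Rnr2 had the largest estimate, a log2 fold change of 0.50 (SE 0.21, edgeR adjusted p = 0.352). Its level in the 6 Txnip libraries overlapped that in controls 1, 3 and 6, while controls 2, 4 and 5, the controls with least on the nuclear rRNA locus, lay below all of them. In a fit without the low-count filter, on 40933 genes, mt-Rnr2 was called (log2 fold change 0.49, edgeR adjusted p = 2.33e-08) among 1400 genes, and with the share of the rRNA locus as a covariate the estimates of mt-Rnr2 and mt-Rnr1 were 0.083 and 0.04, beside 0.50 and 0.34 without it. mt-Cytb had a log2 fold change of -0.22 (SE 0.10, edgeR adjusted p = 0.414). The 7 mRNAs tested had estimates of -0.22 to 0.066 with a median of 0.017, beside 0.00018 over all genes, and the 10 tRNAs tested had -0.43 to 0.37.

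In C57BL/6J, 0 of 24 genes tested were called, against 0.0154% of all 12974 genes, and DESeq2 also called 0. Only mt-Nd3 had an unadjusted p under 0.05, where 0.748% of all genes were past it. Its log2 fold change was -1.11 (SE 0.46, edgeR adjusted p = 1.0), on the counts given above. Of the 24 estimates, 22 lay below 0. The 8 mRNAs tested had estimates of -1.11 to -0.27 with a median of -0.57, beside 0.012 over all genes, and the 13 tRNAs tested had a median of -0.26. Leaving out 1 library moved the mRNA median between -0.84 (without control 2) and -0.30 (without control 1) and the tRNA median between -0.61 (without Txnip 3) and -0.055 (without Txnip 1). The 2 rRNAs were both at 0.40, and their median was 1.38 without control 2 and 0.088 without control 1. With the share of the rRNA locus as a covariate the mRNA median was -0.32 and the rRNA median -0.14, and without the C57BL/6J libraries with the highest rod shares, control 1 and Txnip 2, they were -0.20 and -0.21. Among the 24, mt-Tw, a tryptophan tRNA, was the only gene whose groups did not overlap, at 7.5, 6.39 and 4.95 CPM in control cones and 1.88, 4.0 and 3.89 CPM in Txnip cones, where 4.4% of all genes did not overlap. Gm10925, below the low-count filter, had 1 or 2 counts in the controls and 0 in the Txnip libraries.

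**Figure D5:**
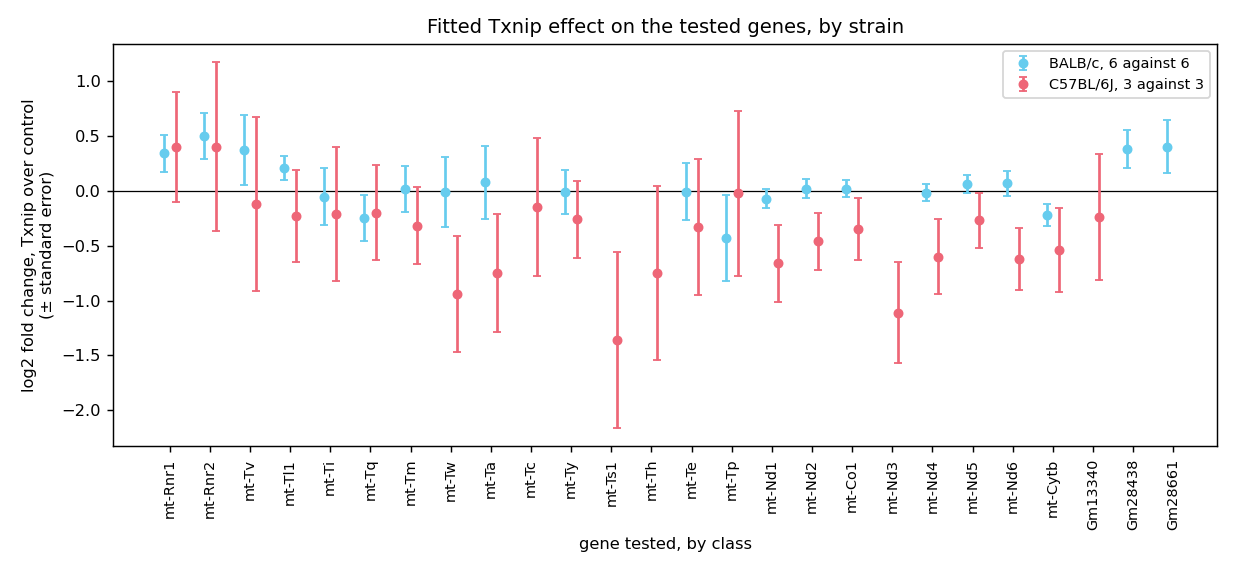
Fitted log2 fold change of Txnip over control cones, with its standard error, for each gene of the set tested in BALB/c (6 against 6 libraries) or C57BL/6J (3 against 3). BALB/c estimates of the 7 mRNAs lie between -0.22 and 0.066, and those of the 8 mRNAs in C57BL/6J lie between -1.11 and -0.27 with wide errors.

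The difference of the Txnip effect between the strains was tested as an interaction in 1 fit of all 4 groups. It was called for 0 of 30 genes of the set, against 0.0% of all 14751 genes, and DESeq2 also called 0. Without the low-count filter 186 genes were called, with 0 in the set. At an unadjusted p under 0.05 there were 2, mt-Nd2 (-0.48 on the log2 scale, SE 0.22, edgeR adjusted p = 1.0) and mt-Nd6 (-0.68, SE 0.27, edgeR adjusted p = 0.919), where 4.79% of all genes were past it. All 8 mRNAs tested had an estimate below 0. They include mt-Nd3 (-2.34, SE 1.43), which passed the low-count filter only through C57BL/6J, so its estimate is not counted as support. The median of the 8 was -0.52 beside 0.018 over all genes. The median was -0.32 without C57BL/6J control 1 and -0.73 without C57BL/6J control 2. In bulk libraries, less RNA per cell and fewer cells of a type cannot be told apart.

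Nuclear genes that act on mitochondrial DNA and RNA were read from 5 lists of 69 genes. For Txnip, 0 of 64 tested in BALB/c and 0 of 66 tested in C57BL/6J were called, where 0.0166% and 0.0154% of all genes were, so the counts of 0 say nothing particular about these genes. The lowest p in BALB/c belonged to Rexo2, an exoribonuclease that degrades short RNA (27.2 ± 15 CPM in Txnip cones and 52.5 ± 5.96 CPM in control cones, n = 6 each, edgeR adjusted p = 0.158), and to Pde12, which trims poly(A) (log2 fold change -0.58, SE 0.20, edgeR adjusted p = 0.259). In C57BL/6J it belonged to Cdk5rap1, a tRNA-modifying enzyme (log2 fold change 0.71, SE 0.31, edgeR adjusted p = 1.0), and to Pus1, a pseudouridine synthase (-0.84, SE 0.46, edgeR adjusted p = 1.0).

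Between strains, 4 of the 67 nuclear genes tested were higher and 3 lower in C57BL/6J control cones, against 8.05% and 9.51% of all genes. No gene of the lists for mtDNA transcription (8 tested), mtDNA replication and upkeep (14) or regulators (7) was called there. Fastkd1, which binds mitochondrial mRNAs, was the only listed gene called in both arms. It was at 14.1 ± 5.41 CPM in C57BL/6J and 4.87 ± 2.08 CPM in BALB/c control cones (log2 fold change 1.51, SE 0.34, edgeR adjusted p = 0.00322) and had a log2 fold change of 1.59 (SE 0.36, edgeR adjusted p = 0.00306) in Txnip cones. In control cones Mettl17, a mitoribosome assembly factor (0.63), Trmu, a tRNA thiolase (0.63), and Slirp, the partner of Lrpprc in stabilising mitochondrial mRNA (0.48), were also higher on the log2 scale. The rRNA methyltransferase Mrm1 (-2.04), Fastk, whose mitochondrial form acts on mt-Nd6 RNA (-0.42), and the tRNA methyltransferase Nsun3 (-0.65) were lower. In Txnip cones 3 of the 67 were higher and 2 lower, against 8.24% and 9.38% of all genes. Besides Fastkd1, the coactivator Ppargc1a (0.45) and Elac2, which cuts tRNA 3′ ends (0.86), were higher, and the mitochondrial RNA polymerase Polrmt (-0.59) and Pus1 (-0.95) were lower.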

How the data were processed

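RNA of sorted cones was amplified by a modified Smart-Seq2 protocol. The authors deposited raw counts of read pairs per gene, made with featureCounts 1.6.2 on Ensembl release 94 exons (GRCm38); per the file headers, strand was not used, pairs aligned to several places were not counted, and a pair counted for every gene it touched. STAR is named in the submitters' notes without a version. Their tables of fold changes and p-values were not used.

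Groups came from the labels. edgeR 4.0.16 (R 4.3.3) quasi-likelihood tests used TMM, filterByExpr and Benjamini-Hochberg adjustment over all genes tested, at 0.05. Txnip was tested within each strain, and the strain and interaction contrasts in 1 fit of all 4 groups. Shares on copies were compared, where gene plus copy reached 10 counts in each library, by two-sided exact permutation tests (scipy 1.17.1). Copies were paired to genes by BLAST 2.17.0 at 95% identity or more over 100 bases or more, on GENCODE transcripts of GRCm38. DESeq2 1.42.0, other normalizations and filters, covariates, a replicate block, added copies and left-out libraries were alternatives. The fits were tested on simulated data with 200 changed genes. Libraries of 647712 to 5172156 counts set the precision, and 95% intervals and the floor of 3 counts cover counting error only.

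The set and the lists were proposed with earlier results of these data known, although membership in the set follows from annotation alone. Any gene of the set could be named; values by library (for BALB/c the lowest, median and highest) are given for the rRNAs, for mRNAs averaging at least 100 counts, for genes called in any comparison and for pairs whose split differed between strains by over 10 percentage points. Of the nuclear lists, called genes or otherwise the 2 with the lowest p are named.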

Additional observations from a re-analysis of the deposited data

How the results depend on the processing

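The split of mt-Nd3 between gene and copy kept its direction in every alternative, and leaving out libraries moved its C57BL/6J minus BALB/c difference in control cones from -100.0 to -99.6 percentage points, where 6 against 2 libraries cannot pass the threshold. The same removals gave differences of -0.0143 to 0.0 for Gm28439, 0.0121 to 0.0249 for Gm29216, 0.0188 to 0.0536 for Gm13340, -0.0754 to -0.0345 for Gm13339 and 0.00386 to 0.0131 for Gm4076. The share on Gm13339 turned from -0.0628 to 0.0812 percentage points in Txnip cones, on at most 2 counts per library. Removals moved the mt-Cytb to mt-Nd1 difference between 0.725 and 0.856 and that of mt-Rnr2 to the rRNA locus between -0.0424 and -0.0253.

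For Txnip in BALB/c, testing all genes with at least 1 count called 1 gene of the set, mt-Rnr2 at 0.49, with the median of all genes at -0.23. No removal of a library gave a call in either strain or for the interaction. In their deviations from group means, same-numbered libraries correlated at -0.0969 to 0.142 in BALB/c and at -0.0452 to 0.0654 in C57BL/6J. These values cannot show whether same-numbered retinas share a mouse, which the labels do not say. With the replicate block 0 genes of the set were called in either strain. Between strains in control cones, removals gave 5 to 10 calls, with 5 without BALB/c control 1, 3 or 6 or without C57BL/6J control 3. In Txnip cones they gave 7 to 11, and the rRNA share as a covariate, chosen after seeing the data, gave 13 in place of 8, the cause of which was not tested.

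With the copies added, mt-Nd3 turned to -0.58 in control and -2.08 in Txnip cones. With the rRNA share as a covariate the Txnip estimates turned for mt-Nd1 (0.045), mt-Nd2 (-0.056) and mt-Nd6 (-0.056) in BALB/c and for mt-Rnr1 (-0.077) and mt-Rnr2 (-0.20) in C57BL/6J. Without the C57BL/6J libraries with the highest rod shares, the Txnip estimates turned for mt-Rnr1 (-0.10), mt-Rnr2 (-0.32) and mt-Tl1 (0.023). Removals moved the BALB/c Txnip estimates of mt-Nd2 between -0.023 and 0.06 and of mt-Nd6 between -0.0012 and 0.12, the C57BL/6J estimates of mt-Rnr2 between -0.00043 and 1.71 and of mt-Tl1 between -0.60 and 0.011, and the strain estimate of mt-Rnr1 in Txnip cones between -0.47 and 0.15. None of these Txnip estimates was called. In control cones the calls of mt-Tl1 (-0.68) and mt-Cytb (0.44) were lost with the rod share as a covariate, that of mt-Nd2 (-0.46) with all genes tested and that of mt-Cytb (0.40) without those libraries. In Txnip cones mt-Ti (-0.96) was lost without them.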
